A study of Mus musculus with 8 samples.

Results

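The 8 members of the mouse Serpinb6 and Serpinb1 groups of clade B serpins were described in paw tissue: Serpinb6a, Serpinb6b, Serpinb6c, Serpinb6d, Serpinb6e, Serpinb1a, Serpinb1b and Serpinb1c. They are 8 of the 22609 gene symbols in the files, found by symbol, and 8 of 8 passed the filter on low counts. The members were selected on measured values, since the difference between females and males in Serpinb6e and Serpinb1c was known when the list was drawn up. That contrast is therefore given for members as a description. Where the fit over all genes put a member past its threshold, that follows from the choice and is read as support for nothing.

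The libraries held polyadenylated RNA from the paws of 4 female and 4 male C57BL/6J mice, an inbred strain. All 8 libraries carry the same treatment label, 0.1 µg of prolactin (PRL), a pituitary hormone, injected into the sole of the paw (intraplantar) daily over 12 days. By the labels the groups differ in sex alone, and no other arm was analysed here, so there is no background without prolactin. Age is not given in the sources used here, nor is it stated beyond the design text that each library came from its own animal, and p-values measure the spread between these libraries.

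Serpins inhibit proteases by offering an exposed reactive centre loop as bait. The protease cuts the loop, the serpin folds it into its own body, and the enzyme is left trapped and distorted. Clade B serpins lack a classical secretion signal and act mainly inside cells, where they guard against proteases that leak from granules or lysosomes. Human SERPINB1 inhibits neutrophil elastase, cathepsin G and proteinase 3, and human SERPINB6 inhibits cathepsin G and thrombin. Mice carry several copies of the genes that are single in humans, and the copies are known to diverge in the loop that meets the protease. Mouse Serpinb1a inhibits neutrophil proteases, and Serpinb6a is the counterpart of human SERPINB6. The roles of the other copies in skin are less well described.

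The coding bases just before the serpin signature, a motif near the end of the protein, encode much of the reactive centre loop and are shown because this is where the copies part. They were taken 5′ to 3′ from GENCODE M21 coding sequences on chromosome 13. Capitals in the Serpinb6 copies mark bases that differ from the aligned codon of Serpinb6a or have no aligned codon there, and capitals in the Serpinb1 copies do the same against Serpinb1a.
Serpinb6a: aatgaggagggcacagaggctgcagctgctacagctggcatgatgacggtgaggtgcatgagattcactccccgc
Serpinb6b: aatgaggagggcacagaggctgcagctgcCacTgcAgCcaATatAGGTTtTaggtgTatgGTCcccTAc
Serpinb6c: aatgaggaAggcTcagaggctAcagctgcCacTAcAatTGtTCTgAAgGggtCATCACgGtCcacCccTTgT
Serpinb6d: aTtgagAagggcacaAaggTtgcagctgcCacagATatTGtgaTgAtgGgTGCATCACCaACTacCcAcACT
Serpinb6e: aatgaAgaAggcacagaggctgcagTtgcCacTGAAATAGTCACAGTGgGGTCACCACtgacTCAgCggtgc
Serpinb1a: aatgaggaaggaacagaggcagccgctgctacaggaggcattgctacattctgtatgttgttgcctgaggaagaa
Serpinb1b: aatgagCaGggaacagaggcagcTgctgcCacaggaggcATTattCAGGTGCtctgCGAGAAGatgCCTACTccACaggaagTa
Serpinb1c: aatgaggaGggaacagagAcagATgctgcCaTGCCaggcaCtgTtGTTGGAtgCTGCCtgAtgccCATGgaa

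In this stretch Serpinb6e shared 68.4% of its aligned bases with Serpinb6a, and Serpinb1c shared 62.5% with Serpinb1a. Serpinb6d shared 59.7% with Serpinb6a. The share of Serpinb6e leaves out its 5 codons with no aligned partner. Counted over all 72 bases, 39 of Serpinb6e and 43 of Serpinb6d were equal to Serpinb6a. Capitals are fewer at the start of the stretch than toward its end. Over the whole coding sequence, also counted in aligned bases, Serpinb6e shared 82.1% and Serpinb6d 82.8% with Serpinb6a, and Serpinb1c 90.5% with Serpinb1a. Over the whole protein, counted in residues and so not comparable with the shares of bases, Serpinb6e and Serpinb6a had 67.7% in common. Serpinb6e and Serpinb6c had 68.0%, and Serpinb1c and Serpinb1a 83.5%. Serpinb6a and Serpinb6b had 81.1% and Serpinb1a and Serpinb1b 86.8%, while any Serpinb6 copy and any Serpinb1 copy had 40.8 to 49.9%. Serpinb6e encodes the longest protein, 429 residues, against 375 to 382 for the 7 others. The serpin signature was found in 8 of 8 proteins.

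Close copies raise the question of whether 50-base reads can tell them apart. The deposited files set alignments that were not unique apart from the gene counts, so the share of 50-base windows of each transcript that occur in no other gene's transcripts was counted, on both strands. It was 99.0% for Serpinb6e and 93.4% for Serpinb1c. Serpinb6e shared 14 windows, with Serpinb6c, and Serpinb1c shared 46 with Serpinb1a. The share was 96.9% for Serpinb6b, 96.9% for Serpinb6d, 89.6% for Serpinb6c, 96.6% for Serpinb1a and 96.5% for Serpinb1b. It was lowest for Serpinb6a, 79.3%, with 290 of its windows also in 1110046J04Rik, a gene on the opposite strand with 9 to 47 counts per library. Library preparation kept strand, but the strand setting of the counting is not given in the sources used here, so reads of that pair cannot be told apart with certainty. With up to 2 mismatches allowed against the other clade B serpins, a count added after the data were seen, the shares were 93.2% for Serpinb6e and 78.0% for Serpinb1c, and lowest for Serpinb6c at 70.4%. This count took in clade B transcripts on the transcript strand only, so it is not a stricter form of the exact count. For Serpinb6a it gave 88.7%, above the exact share, and for each other member it lay below the exact share. For those other members, a mapper that tolerates mismatches can lose or misplace more reads than the exact count shows. The size of this in the mm9 alignments was not measured.

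**Figure D1:**
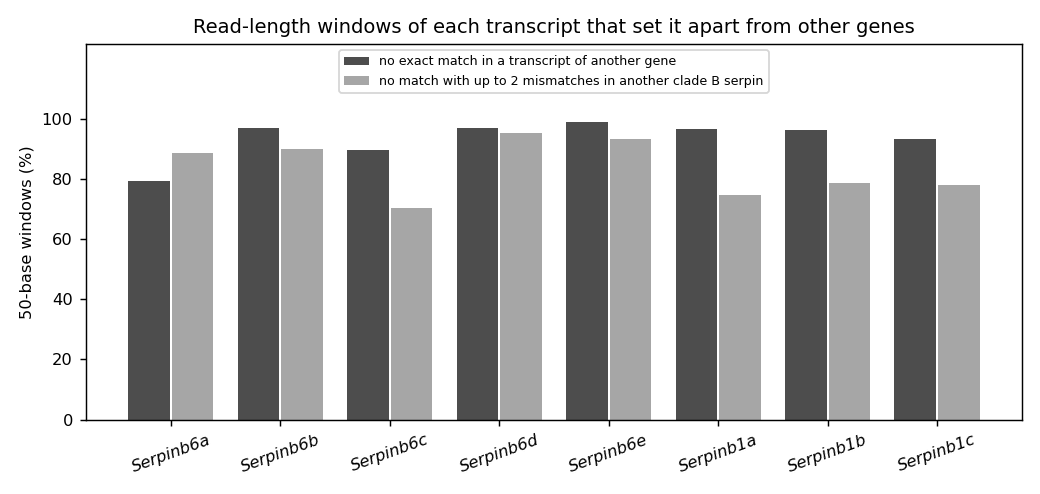
Percent of each member's transcript windows of 50 bases that occur in no other gene's transcript, counted exactly on both strands. Beside it is the percent with no match in another clade B serpin at up to 2 mismatches, on the transcript strand only. Serpinb6e had 99.0% and 93.2%, and Serpinb6c had 89.6% and 70.4%.

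Counts in genes summed to 16753528 to 24993744 per female library and 18183645 to 20416187 per male library. Levels are given as CPM, counts scaled to library size after TMM scaling. The paw pieces differed in make-up. The summed level of 20 fast muscle genes ran from 50.1 to 24430 CPM in females and from 1109 to 32910 CPM in males, with female replicate 3 lowest. The summed level of 13 keratinocyte genes ran from 63670 to 92480 CPM in females and from 78840 to 101900 CPM in males. Neutrophil markers summed to 28.99 to 47.63 CPM in females and 20.54 to 82.3 CPM in males, over 11 symbols in the files, with Elane and Ngp at 0 in all 8 libraries. In bulk tissue, fewer cells of a type and less RNA per cell cannot be told apart.

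Serpinb6e was the member with the widest gap between the sexes. It had 16.4, 28.8, 22.6 and 16.0 CPM in female replicates 1 to 4, and 0.249, 0.374, 0.164 and 0.196 CPM in male replicates 1 to 4. These rest on 279, 623, 513 and 414 counts in females and 5, 7, 3 and 4 counts in males. Each female library lay far above each male library, and the gene was close to undetected in males at this depth. The log2 fold change, female over male, was 6.38 (SE 0.32), and the ratio of summed counts was 85.6 with a 95% interval of 54.7 to 142.5, which covers counting error only.

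Serpinb1c, the other member with a wide gap, had 7.07, 9.84, 7.15 and 6.71 CPM in female replicates 1 to 4, against 1.74, 2.25, 2.29 and 2.65 CPM in male replicates 1 to 4. The groups did not overlap, and unlike Serpinb6e it was plainly detected in males, with 35 to 54 counts per male library and 120 to 213 per female library. Its log2 fold change was 1.78 (SE 0.20), and the ratio of summed counts was 3.44 (95% counting interval 2.91 to 4.09).

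Serpinb1b also lay higher in each female than in each male library, but at a level near the limit of counting. It had 0.530, 0.554, 0.927 and 0.579 CPM in female replicates 1 to 4, and 0.498, 0.428, 0.382 and 0.392 CPM in male replicates 1 to 4. That is 57 counts over the females and 33 over the males, and the counting interval of the ratio, 0.983 to 2.44, includes equality. Its log2 fold change was 0.61 (SE 0.30).

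The copies closest to human SERPINB6 and SERPINB1 by name and role showed no such gap. Serpinb6a had 273.5, 147.9, 117.9 and 281.7 CPM in females and 188.0, 314.3, 233.6 and 164.2 CPM in males. Serpinb1a had 28.9, 22.0, 19.6 and 37.8 CPM in females and 29.3, 26.4, 28.7 and 26.1 CPM in males. The male values lay inside the female range for Serpinb1a and, except for male replicate 2, for Serpinb6a, and the fold changes were small against their errors, -0.13 (SE 0.33) for Serpinb6a and -0.03 (SE 0.19) for Serpinb1a.

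Serpinb6c, the neighbour of Serpinb6e on the chromosome, had 16.6, 30.9, 32.8 and 21.8 CPM in females and 26.3, 26.6, 27.4 and 30.3 CPM in males, a log2 fold change of -0.12 (SE 0.20). Its male values lay within the female range. Serpinb6b had 3.12, 2.54, 2.29 and 3.86 CPM in females and 2.04, 2.35, 2.94 and 2.94 CPM in males, which overlap. It averaged 2.95 ± 0.695 CPM in females, against 2.57 ± 0.449 CPM in males (SD, n = 4 each), with a log2 fold change of 0.20 (SE 0.23). Serpinb6d had 0.118, 1.06, 1.24 and 0.964 CPM in females and 1.09, 0.856, 0.927 and 0.931 CPM in males, with female replicate 1 far below the others. It averaged 0.845 ± 0.498 CPM in females against 0.952 ± 0.101 CPM in males (-0.15, SE 0.51). Its female SD comes largely from female replicate 1, with 2 counts, against 23 to 28 in the other females and 16 to 22 in the male libraries.

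In the quasi-likelihood test of edgeR, with Benjamini-Hochberg adjustment over 14790 genes, 2 of the 8 members, Serpinb6e and Serpinb1c, lay past an adjusted p of 0.05, where 0.0947% of all genes did. Females and males did not overlap for 3 of 8 members, against 4.73% of all genes. Both counts hold Serpinb6e and Serpinb1c, whose gaps were known when the members were chosen. Serpinb1b, also without overlap, rests on few counts. Nothing is read from either count. Of the 8 log2 fold changes, 4 lay above 0 and 4 below, with a median of 0.087, against a median of 0.01 over all tested genes. Serpinb1c was not past the threshold without female replicate 1 or without any 1 of the 4 males.

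**Figure D2:**
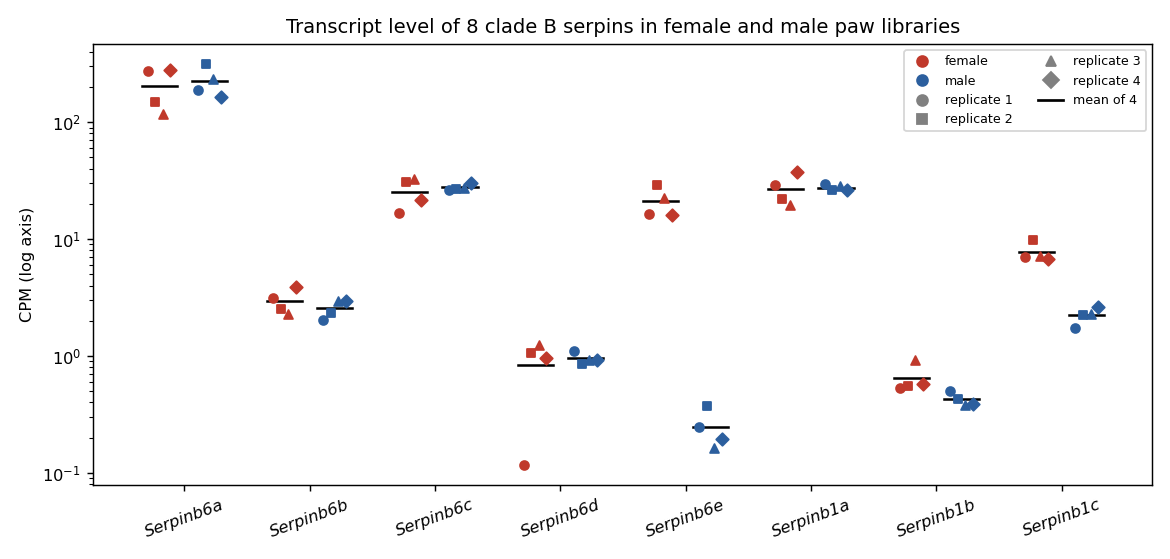
CPM of each member in each library on a log axis, females left of males in each panel. Female and male points are apart for Serpinb6e, Serpinb1b and Serpinb1c and overlap for the 5 others.

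Per kilobase of transcript, Serpinb6a was the most abundant member in both sexes, at 124.1 ± 51.1 CPM per kb in females and 136.1 ± 40.0 in males (SD, n = 4 each). In females Serpinb6c (19.2 ± 5.74 CPM per kb), Serpinb1a (14.1 ± 4.26) and Serpinb6e (14 ± 4.04) came next and lay within their spread of each other. Serpinb1c (4.71 ± 0.884) and Serpinb6b (1.35 ± 0.317) followed, and Serpinb6d (0.578 ± 0.340) and Serpinb1b (0.382 ± 0.111) were lowest and within their spread of each other. The male order differed from this only in the place of Serpinb6e. In males Serpinb6c had 20.8 ± 1.37 and Serpinb1a 14.4 ± 0.852 CPM per kb, followed by Serpinb1c at 1.37 ± 0.228 and Serpinb6b at 1.17 ± 0.205, which lay within their spread. Serpinb6d had 0.651 ± 0.069 and Serpinb1b 0.250 ± 0.031 in males. Serpinb6e, level with Serpinb1a in females, was the lowest member in males at 0.164 ± 0.062 CPM per kb.

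The copies thus made up their groups differently in the 2 sexes. Serpinb6e held 5.31, 13.6, 12.8 and 4.92% of the summed Serpinb6 CPM in female replicates 1 to 4, against 0.114, 0.109, 0.0617 and 0.0987% in male replicates 1 to 4. Serpinb1c held 19.4, 30.3, 25.9 and 14.9% of the summed Serpinb1 CPM in females, against 5.52, 7.74, 7.30 and 9.09% in males. Serpinb6a held most of the Serpinb6 sum in each library, 66.7 to 88.3% in females and 82.7 to 91.2% in males. Relative to its neighbour Serpinb6c in the same library, Serpinb6e stood at 0.989, 0.933, 0.691 and 0.733 in females and at 0.00947, 0.0141, 0.00598 and 0.00647 in males, so the pair was closest to level in female replicates 1 and 2 and far apart in each male. The whole Serpinb6 sum, 176.9 to 324.3 CPM in females and 198.6 to 344.5 CPM in males, overlapped between the sexes, as did the Serpinb1 sum of 27.6 to 45.1 CPM in females and 29.0 to 31.6 CPM in males.

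**Figure D3:**
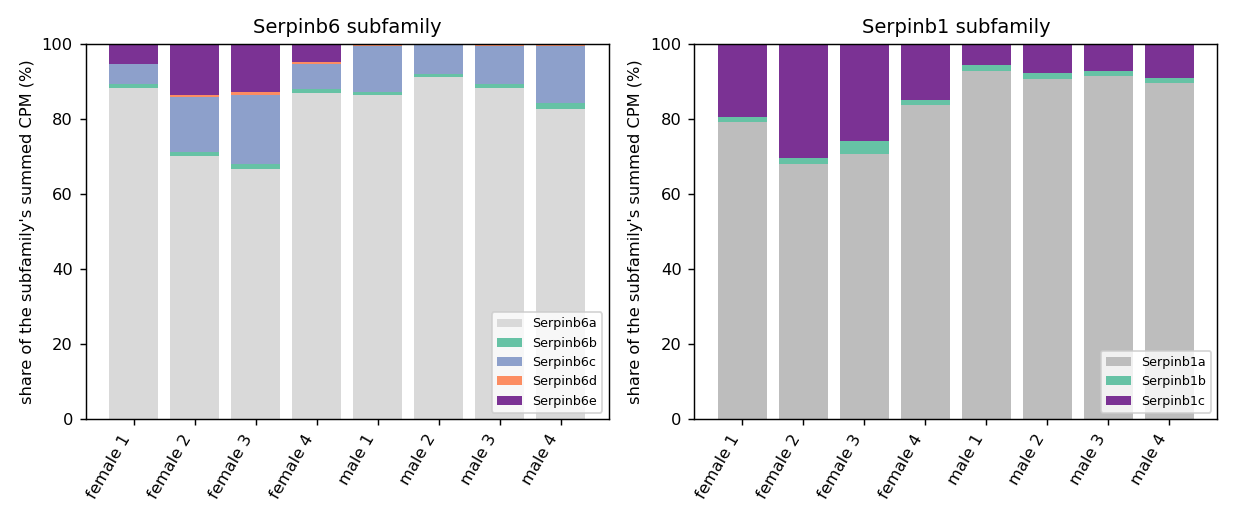
Share of each copy in the summed CPM of its group (Serpinb6, Serpinb1) per library, females left of males. Serpinb6e takes 4.92 to 13.6% of the Serpinb6 sum in females and 0.0617 to 0.114% in males.

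The make-up of the pieces is set beside 4 members, picked after their values were seen. Among the females, Serpinb6a and Serpinb1a were high in replicates 1 and 4, while Serpinb6c and Serpinb6e were high in replicates 2 and 3. The summed keratinocyte markers were also high in female replicates 2 and 3, at 92250 and 92480 CPM, and lower in replicates 1 and 4, at 63670 and 64280 CPM. The summed macrophage markers (8 genes) ran the other way, at 812.2 and 745 CPM in female replicates 2 and 3 and 1759 and 2536 CPM in replicates 1 and 4. The fast muscle sum was also higher in female replicates 1 and 4 (24430 and 6751 CPM) than in 2 and 3 (3476 and 50.1 CPM). So was the mast cell sum, at 163.8 and 300.1 against 82.13 and 143.2 CPM. The neutrophil sum was not, at 28.99 and 47.63 against 42.59 and 43.44 CPM. These parts of the tissue cannot be told apart here. In males the keratinocyte sum ran from 78840 to 101900 CPM and the macrophage sum from 1330 to 1593 CPM. The males did not repeat this grouping: Serpinb6a was highest in male replicate 2 and Serpinb1a in male replicate 1, and Serpinb6e, on 3 to 7 counts, was highest in male replicate 2, where the keratinocyte sum was lowest. Among the other members in females, Serpinb6b was higher in replicates 1 and 4 (3.12 and 3.86 CPM) than in 2 and 3 (2.54 and 2.29 CPM). Serpinb1c was high in replicate 2 alone, Serpinb1b high in replicate 3 alone and Serpinb6d low in replicate 1 alone. Both groupings also occurred outside the members. Serpinb3b had 172.4 and 182.1 CPM in female replicates 2 and 3, against 113.2 and 115.2 CPM in 1 and 4. Serpinb9 ran the other way, with 8.18 and 10.3 CPM in 2 and 3 against 10.5 and 14.5 CPM in 1 and 4.

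Set against the keratinocyte sum, a ratio chosen after the data were seen, Serpinb6e had 2.58, 3.12, 2.45 and 2.48 CPM per 10000 keratinocyte CPM in female replicates 1 to 4, and 0.0244, 0.0475, 0.0186 and 0.0194 in male replicates 1 to 4. The coefficient of variation among females was 11.7% for this ratio and 28.8% for the CPM of Serpinb6e. For Serpinb6c it was 12.9% for the ratio and 29.9% for the CPM. Among males the ratio varied more than the CPM for these 2 genes, with 49.5% for the ratio and 37.7% for the CPM of Serpinb6e, and 10.96% for the ratio and 6.60% for the CPM of Serpinb6c. Among females, Serpinb6a had 58.1% for the ratio and 41.2% for the CPM, Serpinb1a 48.2% and 30.2%, and Serpinb6b 42.1% and 23.5%. The ratio varied less than the CPM among females for Serpinb1b (20.4% and 28.9%), Serpinb1c (15.3% and 18.8%) and Serpinb6d (56.5% and 58.9%). The fall was therefore not particular to Serpinb6e and Serpinb6c. Per keratinocyte sum Serpinb6e averaged 2.66 ± 0.313 in females and 0.0275 ± 0.0136 in males (SD, n = 4 each). Serpinb6e was chosen with its gap between the sexes known. The keratinocyte sum, 63670 to 101900 CPM over all libraries, varied too little to close that gap, so these means are a description only. Of the 13 keratinocyte markers 4 lay higher in females and 0 were called by edgeR. Whether the make-up of the piece set the spread within a sex was not tested.

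Muscle content gave a contrast that the choice of members did not use. The score was the mean log2 CPM of the 20 fast muscle genes, 9.63, 6.72, 0.74 and 7.67 in female replicates 1 to 4 and 7.34, 10.08, 7.98 and 5.03 in male replicates 1 to 4. With sex in the model, Serpinb6a was higher where there was more muscle transcript, by 0.15 on the log2 scale per unit of the score (SE 0.03, edgeR adjusted p = 0.0299). It was the only member called, 1 of 8, against 4.78% of all genes called higher and 0.818% called lower with the score. That call was lost without female replicate 1 (adjusted p = 0.142), female replicate 3 (0.0742) or any of the males (0.0555, 0.0853, 0.0640 and 0.0990 without male replicates 1 to 4), while the slope stayed between 0.14 and 0.20 over all alternatives.

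The slopes of Serpinb6e (-0.03, SE 0.05, edgeR adjusted p = 0.668) and Serpinb1c (-0.01, SE 0.04, adjusted p = 0.915) did not pass. Serpinb6c had a slope of -0.08 (SE 0.03, adjusted p = 0.114), past the threshold only without female replicate 2 (-0.09, adjusted p = 0.0202). Serpinb1a had 0.06 (SE 0.03, adjusted p = 0.237), Serpinb1b -0.08 (SE 0.05, adjusted p = 0.341), Serpinb6b 0.04 (SE 0.04, adjusted p = 0.607) and Serpinb6d -0.13 (SE 0.08, adjusted p = 0.344).

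**Figure D4:**
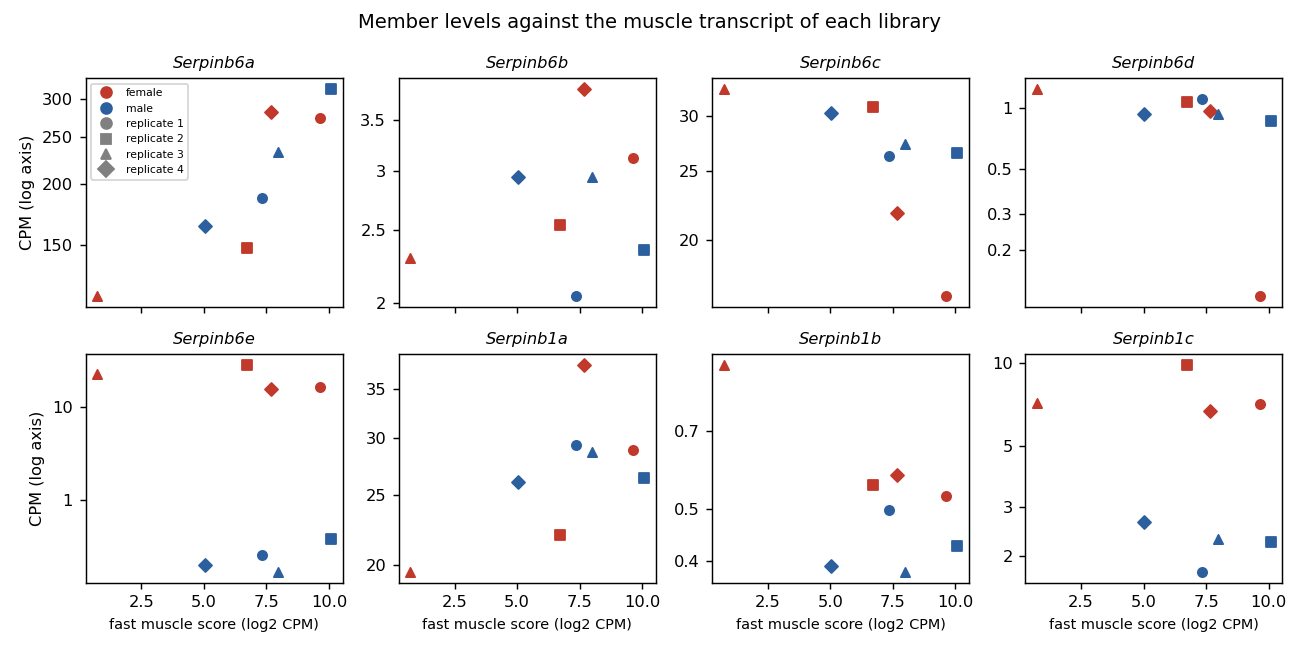
CPM of each member on a log axis against the fast muscle score in log2 CPM, with colour for sex and marker shape for the replicate number. Serpinb6a lies higher at higher scores, and Serpinb6e is split by sex at all scores.

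The members lie in 1 stretch of chromosome 13 with the Serpinb9 genes between them. In the RefSeq order Serpinb1a and Serpinb1c stand next to each other, then come Serpinb6b, Serpinb9, Serpinb9b and Serpinb1b, then the other Serpinb9 copies, and last Serpinb6d, Serpinb6e, Serpinb6c and Serpinb6a. Both members with a wide gap thus have neighbours without one. Serpinb6e stands between Serpinb6d (log2 fold change -0.15) and Serpinb6c (-0.12), and Serpinb1c between Serpinb1a (-0.03) and Serpinb6b (0.20). Serpinb9, an inhibitor of granzyme B, had 10.9 ± 2.66 CPM in females, against 10.5 ± 1.18 CPM in males (SD, n = 4 each; log2 fold change 0.06, SE 0.18). Outside the serpins, Wrnip1 had -0.02 (SE 0.10), the quinone reductase gene Nqo2 -0.14 (SE 0.29) and the kinase gene Ripk1 0.07 (SE 0.11). Mylk4, beyond Wrnip1, had -1.34 with a wide error (SE 1.41).

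**Figure D5:**
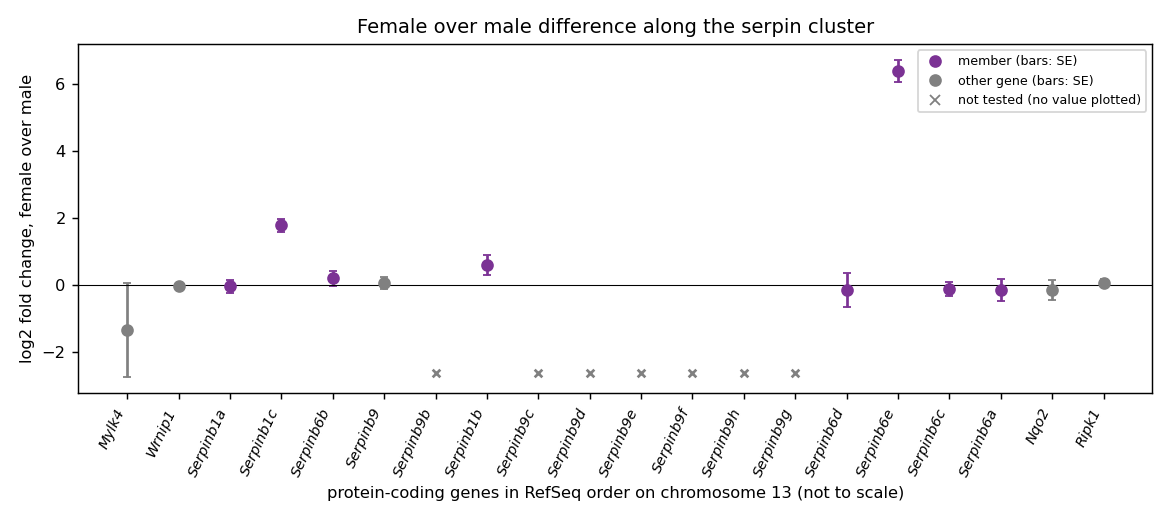
Log2 fold change, female over male, with its SE, of the tested genes in their RefSeq order on chromosome 13. Serpinb6e at 6.38 and Serpinb1c at 1.78 stand apart from their neighbours.

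The promoters of Serpinb6e and its neighbour Serpinb6d are shown because both hold the same pair of motif letters, while the gap between the sexes was wide in Serpinb6e and within the error in Serpinb6d. They are the 250 bases before the start in RefSeq on GRCm38.p6, chr13:33843409-33843658 on the minus strand for Serpinb6e and chr13:33661155-33661404 on the plus strand for Serpinb6d, each written 5′ to 3′ along the gene. Capitals mark AGGTCA, a core of estrogen receptor and other nuclear receptor sites, on either strand, and AGAACA, a core of androgen and glucocorticoid receptor sites.
Serpinb6e: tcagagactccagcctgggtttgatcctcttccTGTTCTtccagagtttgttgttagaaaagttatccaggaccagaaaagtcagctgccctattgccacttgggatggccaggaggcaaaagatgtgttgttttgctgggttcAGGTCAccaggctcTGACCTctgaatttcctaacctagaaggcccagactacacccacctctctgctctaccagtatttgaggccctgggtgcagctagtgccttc
Serpinb6d: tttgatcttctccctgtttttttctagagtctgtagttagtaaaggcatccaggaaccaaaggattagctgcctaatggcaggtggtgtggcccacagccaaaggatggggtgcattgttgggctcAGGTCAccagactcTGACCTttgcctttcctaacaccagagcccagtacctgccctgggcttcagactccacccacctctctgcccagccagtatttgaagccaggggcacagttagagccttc

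Over 227 aligned bases these promoters were 81.1% identical. The other pairs of member promoters aligned over fewer bases, 145 to 190, at 70.1 to 81.2% identity, so the percentage itself does not set this pair apart. Both hold AGGTCA on the strand of the gene followed by the same letters on the other strand (TGACCT), at -106 and -92 from the start in Serpinb6e and at -124 and -110 in Serpinb6d. Serpinb6e alone of the 2 holds AGAACA, at -217 on the other strand. Between AGGTCA and TGACCT stand the letters ccaggctc in Serpinb6e and ccagactc in Serpinb6d. This spacing was not compared with that of a known receptor site, so the pair is not read as an estrogen receptor site. Over 32851 RefSeq promoters, AGGTCA was found in 14% and AGAACA in 16.1%, on either strand. These shares are for promoters with any match, and the share that holds AGGTCA followed by TGACCT was not counted. Of the 7 members with a RefSeq promoter (Serpinb1a had no entry), AGGTCA was also found at -12 before the second start of Serpinb1c. TTCNNNGAA, the letters of a STAT5 site, which prolactin signalling uses, were found only in Serpinb6a, at -77 before its first start, and in 7.02% of all promoters. A match is a description of the letters.

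By the rule for pattern likeness, the root mean square difference in centred log2 CPM over 8 libraries, the genes nearest to Serpinb6e were Cartpt (0.801), Skint5 (1.465) and Serpina3a (1.633). Cartpt, a neuropeptide precursor gene, had 3.88 ± 3.06 CPM in females (SD, n = 4) and 0 counts in each male library. Skint5, of a family expressed in skin, averaged 7.70 ± 3.78 CPM in females, against 0.760 ± 0.476 CPM in males (SD, n = 4 each). Nearest to Serpinb1c were Akr1c21 (0.295), a hydroxysteroid dehydrogenase gene, Adrbk2 (0.310), a receptor kinase gene, and Skint8 (0.317). Akr1c21 averaged 74.2 ± 18.3 CPM in females, against 20.7 ± 3.48 CPM in males, and Skint8 3.51 ± 0.917 CPM in females, against 1.15 ± 0.181 CPM in males. These genes are the nearest by the rule, so any other gene is farther. Serpinb6e and Serpinb1c were 2.123 apart, and Serpinb1c was the 10th nearest of the tested genes to Serpinb6e. Both members were chosen with the female over male contrast known, so the gaps of these near genes are a description only.

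The rest of clade B gave no call between the sexes. Of 19 other Serpinb symbols in the files, 13 were tested and 5 (Serpinb9c, Serpinb9d, Serpinb9e, Serpinb9f and Serpinb9g) had 0 counts in all libraries. The tools edgeR, DESeq2 and limma-voom each called 0 of the 13, and 3 had an unadjusted p under 0.05 in edgeR. Over all 14790 tested genes, edgeR called 0.0947%, and 966 had an unadjusted p under 0.05. With so few calls over all genes, 0 among 13 does not set this list apart. The log2 fold change lay above 0 for 3 and below for 10, with a median of -0.07. Females and males overlapped for 13 of 13, where 4.73% of all tested genes did not overlap. The 4 of smallest p are given by value only. Serpinb3c averaged 2.49 ± 1.19 CPM in females, against 0.985 ± 0.314 CPM in males (log2 fold change 1.33, SE 0.42, edgeR adjusted p = 0.640). Serpinb12, an epithelial serpin, averaged 497 ± 123 CPM in females, against 835 ± 206 CPM in males (-0.75, SE 0.24, adjusted p = 0.641). Serpinb11 averaged 82.6 ± 22.3 CPM in females, against 129 ± 23.5 CPM in males (-0.65, SE 0.22, adjusted p = 0.657), and Serpinb3b 146 ± 36.7 CPM in females, against 170 ± 36.3 CPM in males (-0.22, SE 0.21, adjusted p = 0.986). With more muscle transcript Serpinb8, whose human counterpart inhibits furin, was lower (slope -0.065, SE 0.014, edgeR adjusted p = 0.0411). That was 1 of 13 called, against 0.818% of all genes called lower and 4.78% called higher with the score. With 1 gene called, nothing is read about the list. The slope of Serpinb8 kept its sign in each fit without a library (-0.074 to -0.056). The call was lost in 7 of those 8 fits, all but that without female replicate 2, with an adjusted p of 0.0502 to 0.279. It was also lost without the sex term (-0.057, adjusted p = 0.0663).

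Transcripts of proteases known in mouse or human as targets of SERPINB1 or SERPINB6 were low or gave no call between the sexes. Only RNA was measured, so the amount of protease protein in the paw is not known from these values. Of 10 in the files, 5 were tested, edgeR, DESeq2 and limma-voom each called 0, and 0 had an unadjusted p under 0.05 in edgeR. With 0.0947% of all genes called in edgeR, 0 of 5 does not set this list apart. The log2 fold change lay above 0 for 2 and below for 3, with a median of -0.02. Elane, neutrophil elastase, had 0 counts in all 8 libraries. Prtn3, proteinase 3, had 2 to 10 counts per female library and 2 to 5 per male library, and Ctsg, cathepsin G, 5 to 15 per female library and 4 to 7 per male library, and both were left untested by the filter on low counts.

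Among the tested proteases, the mast cell chymase gene Cma1 averaged 38.9 ± 31.0 CPM in females, against 21 ± 1.58 CPM in males (SD, n = 4 each; log2 fold change 0.89, SE 0.52, edgeR adjusted p = 0.860). Female replicate 4, at 82.3 CPM, lay above the others, and without it the log2 fold change of Cma1 was 0.20. Summed mast cell markers were also highest there, at 300.1 CPM, with 82.13 to 163.8 CPM in the other females and 105.4 to 160.7 CPM in males. All 8 of these markers lay higher in females on average, and edgeR called 0. Klk8, an epidermal kallikrein gene, averaged 332 ± 79.4 CPM in females, against 411 ± 62.2 CPM in males (-0.31, SE 0.19, adjusted p = 0.877). The inflammatory caspase genes Casp4 (mean of 19.8 ± 4.31 CPM in females, 15.4 ± 1.08 CPM in males) and Casp1 (76.0 ± 12.6 CPM in females, 83.9 ± 8.47 CPM in males) had adjusted p of 0.761 and 0.982 in edgeR.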

How the data were processed

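Polyadenylated RNA of 8 paw libraries (4 female, 4 male) was sequenced as single-end reads of 50 bases from a stranded kit, per the labels' protocols. The submitters' processing notes name bcl2fastq, TopHat2, HTSeq and build mm9. Their versions, the annotation and the strand setting were not given in the sources used here. For each library the authors deposited raw whole-number counts per gene symbol. Lines that name no gene were left out of library sizes and tests. They held reads in no feature (18.0 to 21.1% of uniquely placed reads) and alignments that were not unique (45.2 to 48.7% of all lines).

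Members, gene lists and naming rule were chosen with earlier results of these data known. Named were the 8 members, called genes of the lists of other clade B serpins and target proteases, up to 4 uncalled genes per list by smallest p, and the 3 genes nearest in pattern to Serpinb6e and Serpinb1c. Serpinb9, Mylk4, Wrnip1, Nqo2 and Ripk1 were named for their position.

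Females were compared with males in edgeR 4.0.16 (R 4.3.3) with TMM scaling, filterByExpr (14790 of 22609 genes kept) and the robust quasi-likelihood test, with Benjamini-Hochberg adjustment over all of them, and genes were called at an adjusted p under 0.05. Each SE was derived from a gene's fold change and its F statistic. A second model added the fast muscle score. Alternatives were DESeq2 1.42.0, limma-voom 3.58.1, other scalings and filters, a replicate block, the muscle score as covariate, and each library left out in turn. The chi-square per gene between same-sex libraries was at least 13.2 over genes with at least 20 counts, so none looked like a repeat of another. Counting intervals (95%) cover counting error only, because reads without molecular identifiers are not independent molecules. Sequence features came from GENCODE M21 and RefSeq on GRCm38.p6, which is not the build of the counts, so they are used for sequence and gene order only.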

Additional observations from a re-analysis of the deposited data

Results flagged for a closer look

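In 16 groups of 4 libraries of the same sex (8 members, 2 sexes), 3 held a library set apart from the rest. Its gap to its nearest neighbour took up most of the group's range, both taken in log2 CPM with 0.1 added to the CPM. Chance alone marks about 1 group in 20 in this way. Serpinb6d in female replicate 1 had 2 counts (0.118 CPM), against 23 to 28 counts in the other females, a gap of 0.875 of the range. Serpinb1b in female replicate 3 had 21 counts (0.927 CPM), against 9 to 15 in the other females, a gap of 0.849 of the range. Serpinb1c in female replicate 2 had 213 counts (9.84 CPM), against 120 to 174 in the other females, a gap of 0.834 of the range. The first 2 rest on few counts, and no cause was tested.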

How the results depend on the processing

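For the members, chosen on the female over male contrast, its values over 18 alternatives are a description and no evidence of stability. The log2 fold change ran from 6.19 to 6.64 for Serpinb6e and from 1.64 to 1.88 for Serpinb1c. Serpinb1c was not past the threshold in 6 of the 18, the 5 fits without a library named above and the replicate block. The number of genes called, 14 in edgeR, was 112 with DESeq2, 8 to 16 with 1 library left out, and 22 with the muscle score as covariate and without female replicate 3, a fit chosen after seeing the data. With the replicate number as a block it was 7. Labels do not state that equal numbers pair animals, the deviations of equal numbers correlated at -0.308 to -0.0911, and 0 of 8 libraries correlated best with their own number. Genes called on the muscle score, 828, ran from 288 to 2302 with 1 library left out, and called members from 0 to 2. Slopes that changed sign there were those of Serpinb6b (-0.025 to 0.060), Serpinb1b (-0.093 to 0.003) and Serpinb1c (-0.071 to 0.009). Fold changes of Serpinb1a, Serpinb6a, Serpinb6c and Serpinb6d, within their error, changed sign in 5, 3, 1 and 1 alternatives. Windows of 36 bases were unique at 73.9% (Serpinb6a) to 96.9% (Serpinb6e). The cause was not tested. Depth limits Serpinb1b, Serpinb6d and male Serpinb6e most, with counts of 2 to 28, and reads shared by gene copies are missing from all values. All libraries carried prolactin, so no value separates sex from its interaction with treatment.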
